A study of Homo sapiens with 70 samples.

Results

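The matrix metalloproteinase (MMP) gene cluster at 11q22 is a row of secreted protease genes on the long arm of chromosome 11. Its 9 members were taken by name from the 44503 genes counted in each table. In order of start position they were MMP7, MMP20, MMP27, MMP8, MMP10, MMP1, MMP3, MMP12 and MMP13. All 9 were annotated on the minus strand of hg19 and together spanned 435.2 kb, from 102391239 to 102826463.

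MMPs are zinc-dependent endopeptidases that are secreted as inactive proenzymes, become active when their propeptide is removed, and are held in check by tissue inhibitors of metalloproteinases (TIMPs). Collagenases cut fibrillar collagen, stromelysins degrade many other matrix proteins and activate further proenzymes, and matrilysin and macrophage elastase cut proteoglycans, elastin and cell surface proteins. Several of these genes belong to the senescence-associated secretory phenotype (SASP), the set of factors that senescent fibroblasts release, and AP-1, C/EBP and NF-kB factors are known to control MMP promoters.

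RNA-seq counts came from 3 experiments, 2 of them in IMR90 cells, a line of normal human lung fibroblasts, and 1 in H1299 cells, a line of non-small cell lung carcinoma. All IMR90 libraries came from cells with an ER:HRAS G12V transgene, whose oncogenic Ras is switched on by 4-hydroxytamoxifen (4OHT). Cells given 100 nM 4OHT for 6 days are called OIS (oncogene-induced senescence, named RIS in the labels), and cells without it are called Grow. IMR90 cells were kept in 5% oxygen. The first experiment held 8 libraries each of Grow and OIS cells with the empty pMSCV miR vector, and of Grow-shA1 and OIS-shA1 cells with pMSCV miR shHMGA1, which lowers HMGA1, a chromatin protein of senescent cells. The second held 5 libraries each of Grow-v-v and OIS-v-v cells with empty pSuper and pMSCV miR vectors, of OIS-shCEBPB cells with pSuper shCEBPB, of OIS-shp53 cells with pMSCV miR p53, and of OIS-shCEBPB-shp53 cells with both. CEBPB encodes C/EBPβ, a transcription factor that drives SASP genes. The third held 7 libraries of H1299 cells with the empty vector and 6 of H1299-shA1 cells, grown in atmospheric oxygen and without the Ras transgene. The labels name 6 biological replicates, which is not the number in most groups, and give no culture for each library, so the p-values measure the spread between these libraries, which may be partly technical.

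Total counts ran from 1903607 to 22136571 in the first experiment, from 14544053 to 24890797 in the second and from 17747670 to 23649765 in the third. OIS replicate 4, with the lowest total, stood apart from the other libraries on the first principal component of the deviations from the group means (score 0.823, against -0.288 to 0.187 in the others). In the second experiment replicates 4 and 5 of every group stood apart from replicates 1 to 3 (scores 0.182 to 0.333 against -0.22 to -0.108), and the labels name no batch. Of the targeted genes, 2 are given here. Mean HMGA1 was 482 and 34.7 CPM (counts per 1000000 counts of the library, after scaling) in Grow and Grow-shA1, 733 and 59.6 CPM in OIS and OIS-shA1, and 1888 and 379 CPM in H1299 and H1299-shA1. CEBPB fell from 295 CPM in OIS-v-v to 35.5 in OIS-shCEBPB and was at 32.6 CPM in the double knock-down. All 10 fibroblast markers had at least 1 CPM on average in every IMR90 group, although their summed level was 37730 to 47080 CPM in the Grow libraries and 5764 to 7090 CPM in the OIS libraries. In H1299 libraries, 2 of 10 fibroblast markers and 2 of 5 epithelial markers reached 1 CPM on average. RNA was taken from whole cultures, so fewer cells of a kind and less RNA per cell cannot be told apart.

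The promoter letters of the members show where the cluster is alike and where it is not, so 4 promoters are printed here. RefSeq promoters, 250 bases before to 50 after the annotated start on GRCh38.p14, were matched for 5 of the 9 members, and those of MMP1, MMP3, MMP12 and MMP13 were not analysed here. The capitals mark AP-1 letters (TGANTCA, the same on both strands) and TATA boxes (TATAAA or its reverse complement TTTATA). Each sequence is given 5′ to 3′ on the minus strand of chromosome 11, which is the coding strand. MMP7 and MMP10 are shown as the outermost matched members, and MMP8 and MMP20 because they lie between them. Over all OIS libraries MMP7 had 249 counts, MMP8 183, MMP20 55 and MMP10 12342, so the choice does not divide high from low members.
MMP7 (chr11:102530698-102530997): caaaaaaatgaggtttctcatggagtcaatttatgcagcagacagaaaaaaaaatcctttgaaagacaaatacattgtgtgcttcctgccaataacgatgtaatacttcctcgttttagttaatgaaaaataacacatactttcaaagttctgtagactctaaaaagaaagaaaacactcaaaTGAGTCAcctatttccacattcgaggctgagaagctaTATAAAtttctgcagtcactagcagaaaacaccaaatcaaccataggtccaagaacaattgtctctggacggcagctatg
MMP20 (chr11:102625283-102625582): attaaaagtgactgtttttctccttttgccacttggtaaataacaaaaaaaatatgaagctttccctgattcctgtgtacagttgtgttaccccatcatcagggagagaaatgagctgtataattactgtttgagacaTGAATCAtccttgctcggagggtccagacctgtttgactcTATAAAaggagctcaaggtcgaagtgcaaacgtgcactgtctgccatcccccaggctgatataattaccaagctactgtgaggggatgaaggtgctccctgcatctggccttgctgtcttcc
MMP8 (chr11:102724905-102725204): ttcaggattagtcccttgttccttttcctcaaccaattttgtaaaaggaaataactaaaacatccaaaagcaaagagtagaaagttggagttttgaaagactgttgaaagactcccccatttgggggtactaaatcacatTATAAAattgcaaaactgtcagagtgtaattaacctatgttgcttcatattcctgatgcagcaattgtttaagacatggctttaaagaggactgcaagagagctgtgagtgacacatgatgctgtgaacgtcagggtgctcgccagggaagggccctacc
MMP10 (chr11:102780579-102780878): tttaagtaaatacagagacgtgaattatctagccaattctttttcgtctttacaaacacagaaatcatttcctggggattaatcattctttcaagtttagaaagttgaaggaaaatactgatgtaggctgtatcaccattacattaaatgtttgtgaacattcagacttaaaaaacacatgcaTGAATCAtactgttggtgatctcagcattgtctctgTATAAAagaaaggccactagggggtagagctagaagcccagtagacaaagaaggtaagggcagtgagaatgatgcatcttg
MMP7 had TGAGTCA with its first base at -67 and TATAAA at -30 from the start, and MMP10 had TGAATCA at -67 and TATAAA at -31. The same pair of motifs stood farther out in MMP20, with TGAATCA at -112 and TATAAA at -72. MMP8 had no AP-1 letters in this window, TATAAA at -110 and, among the C/EBP letters TTGCNNAA or TTNNGCAA, TTGCAAAA at -103. NF-kB letters (GGG, 5 free bases and CC, on either strand) were found only after the start of MMP8, in 3 overlapping matches from 36 onwards. MMP27 had none of these 4 motifs. Among the 27305 promoters of the same length, 7.76% held the AP-1 letters, 12% the TATA box, 10.6% the C/EBP letters and 58.0% the NF-kB letters, so the last are no mark of a gene. A match is a description of letters and not evidence of binding.

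In hg19 MMP7 (ENSG00000137673) lies at chr11:102391239-102401484, followed by MMP20 at chr11:102447566-102496063, MMP27 at chr11:102562218-102576537 and MMP8 at chr11:102582526-102597781. MMP10 lies at chr11:102641234-102651359, MMP1 (ENSG00000196611) at chr11:102660651-102668891, MMP3 (ENSG00000149968) at chr11:102706532-102714338, MMP12 at chr11:102733467-102745764 and MMP13 at chr11:102813724-102826463. The closest neighbours are MMP27 and MMP8, 5988 bases apart, and MMP10 and MMP1, 9291 bases apart, while 37640 bases separate MMP1 from MMP3 and 19128 bases MMP3 from MMP12. MMP12 was matched by position because its Ensembl identifier differs between the tables and the annotation, and the other 8 were matched by identifier. Reads of the first experiment and of the H1299 cells were counted over all exons of a gene without regard to strand, and the strand setting of the second experiment was not given in the sources used here. Exons of MMP1 share 150 bases, and those of MMP3 32 bases, with WTAPP1, a pseudogene transcript on the plus strand that crosses this stretch, so reads of the 2 strands cannot be told apart there. MMP10 and MMP3 are near enough in sequence to share 59 of the 50-base stretches of their transcripts, 3.36% and 3.18% of all such stretches, and reads that lie within those stretches cannot be assigned to one of them.

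The 9 neighbours differed in level by several orders of magnitude. On the scale of CPM per kb of exon, which allows genes to be compared, MMP1, the interstitial collagenase, was the highest member in every group of the 3 experiments. In Grow libraries it stood at 983 CPM per kb on average and MMP3, stromelysin 1, at 120. In OIS libraries the averages were 9192 and 2765 CPM per kb, and in OIS-shA1 libraries 15730 and 5626. The members outside this pair made up little of the summed level. All 9 genes together took 0.205% of all counts in Grow, 0.766% in Grow-shA1, 2.56% in OIS and 4.31% in OIS-shA1. The share of MMP1 in the per-length level of the cluster was 88.3% in Grow and 76.5% in OIS, and that of MMP3 was 10.6% and 22.9%.

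**Figure D1:**
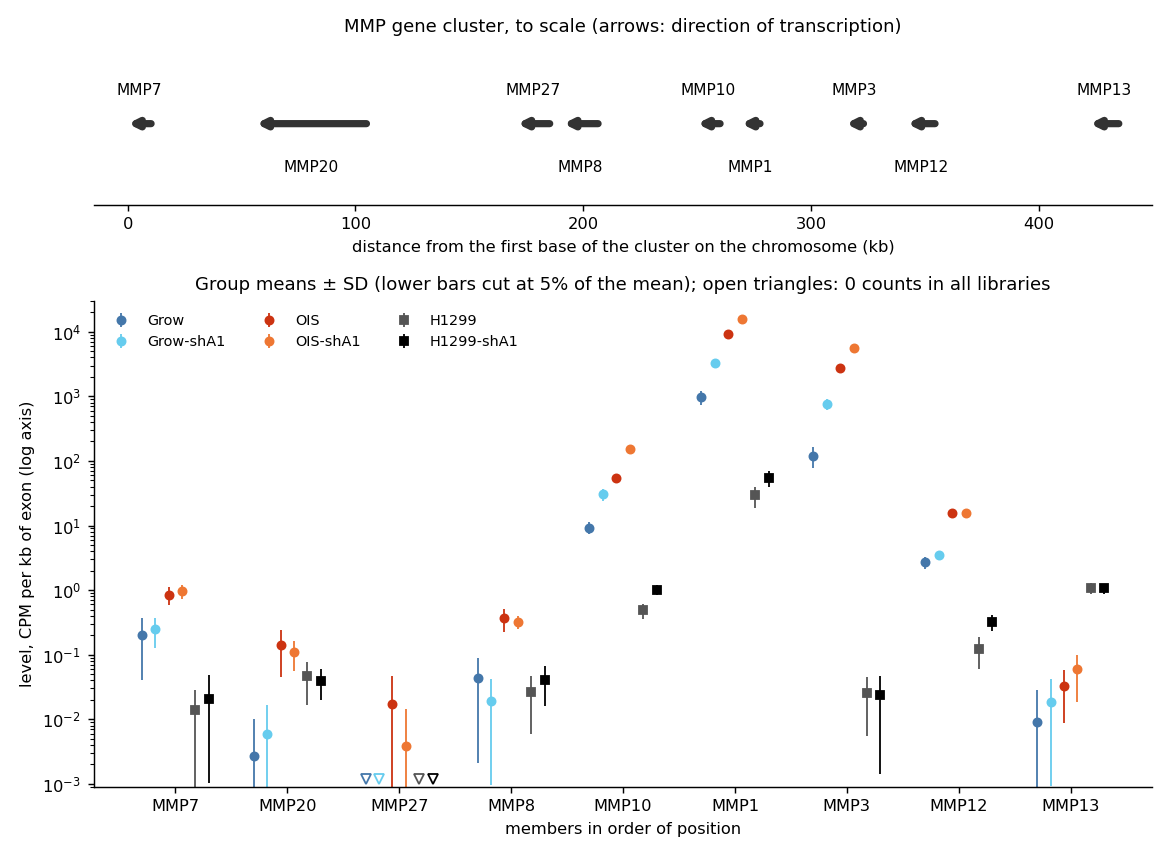
The upper panel draws the 9 genes to scale by distance in kb from the first base of the cluster, and the lower panel gives the mean ± SD of each member in CPM per kb of exon on a log axis for the first experiment and the H1299 cells, with open triangles where all libraries of a group had 0 counts. MMP1 is the highest member in each group, at 983 CPM per kb in Grow and 15730 in OIS-shA1, and MMP27, MMP20 and MMP13 lie lowest in the fibroblasts.

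Senescence was compared first, OIS against Grow, with edgeR's quasi-likelihood test and Benjamini-Hochberg adjustment over all genes of the table that passed the filter on low counts (the edgeR test, called at an adjusted p under 0.05). The 5 members that passed the filter, MMP7, MMP10, MMP1, MMP3 and MMP12, were all higher in OIS, in a comparison that called 74.8% of 13304 genes and called 38.8% higher. Their log2 fold changes ran from 1.97 to 4.57, where the median over all genes tested was 0.03. The other 4 members had too few counts for the filter and are given as counts below.

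The stromelysins MMP3 and MMP10 activate other proenzymes and degrade proteoglycans, laminin and fibronectin. MMP3 had 152 CPM in the lowest, 206 in the median and 407 in the highest Grow library, and 4261, 5102 and 6539 CPM in OIS. Its log2 fold change was 4.57 (SE 0.15, edgeR adjusted p = 2.59e-21), the largest of the 5. MMP10 was far lower, with 11.9, 16.6 and 21.2 CPM in Grow and 75.9, 93.1 and 121 CPM in OIS. Its log2 fold change was 2.60 (SE 0.10, edgeR adjusted p = 2.11e-19). For both genes each OIS library lay above every Grow library. MMP1 stood between them in fold change, from 1378, 1876 and 2920 CPM in Grow to 16400, 17940 and 21590 CPM in OIS, a log2 fold change of 3.26 (SE 0.11, edgeR adjusted p = 3.05e-21).

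MMP12, macrophage elastase, cuts elastin and is best known from macrophages. Its levels were 3.67, 4.89 and 6.67 CPM in the lowest, median and highest Grow library and 26.8, 29.3 and 32.7 CPM in OIS, a log2 fold change of 2.60 (SE 0.09, edgeR adjusted p = 3.95e-20), and the groups did not overlap. MMP7, matrilysin, a protease without the hemopexin domain that most MMPs have and mainly known from epithelia, was near the lower limit of the counts. It had 0.152, 0.310 and 1.12 CPM in Grow and 0.992, 1.90 and 2.86 CPM in OIS, so the ranges overlapped, with a log2 fold change of 1.97 (SE 0.31, edgeR adjusted p = 1.88e-06). MMP7 passed the filter only through the OIS libraries, where it was higher, so its place among the members called was not independent of direction. The 9 leukocyte markers summed to 17.2 to 24.1 CPM in Grow libraries and 46.7 to 62.5 CPM in OIS libraries, and nearly all of this was CD68. CD68 averaged 19.2 CPM in Grow and 52.0 CPM in OIS, and CSF1R 1.06 and 3.6 CPM. PTPRC (0.056 CPM in Grow and 0.168 in OIS), ITGAM (0 and 0.074) and ITGB2 (0.030 and 0.118) were higher in OIS too, at very low levels. CD14, LYZ and MPO were lower in OIS, CD14 at 0.390 CPM in Grow and 0.310 CPM in OIS, LYZ at 0.028 and 0 and MPO at 0.019 and 0. The list thus did not move as a whole. Of the 9, only CD68 and CSF1R reached 1 CPM, and LYZ, MPO and ELANE had 0 counts in all OIS libraries. Their part in the result was not tested.

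The collagenase MMP8, best known from neutrophils, and the members at the edge of detection had too few counts to pass the filter in this comparison. MMP8 had 21 counts over the 8 Grow libraries (0 to 7 each) and 183 over the 8 OIS libraries (1 to 41 each). MMP20, enamelysin, which shapes tooth enamel, had 1 and 55 counts in the same groups. When every gene with a count was tested, MMP8 was called (log2 fold change 3.11, edgeR adjusted p = 2.65e-10), as were MMP20 (edgeR adjusted p = 1.4e-07) and MMP27 (edgeR adjusted p = 0.0234), for which no fold change is given because Grow held 1 and 0 counts. MMP27, of which little is known, had 5 counts in all OIS libraries, and MMP13, collagenase 3, had 4 in Grow and 14 in OIS and was not called (edgeR adjusted p = 0.0926). One library's 3 counts correspond to between 0.147 and 1.43 CPM in OIS, so MMP27 and MMP13 were at or under the limit that a count of 0 allows.

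**Figure D2:**
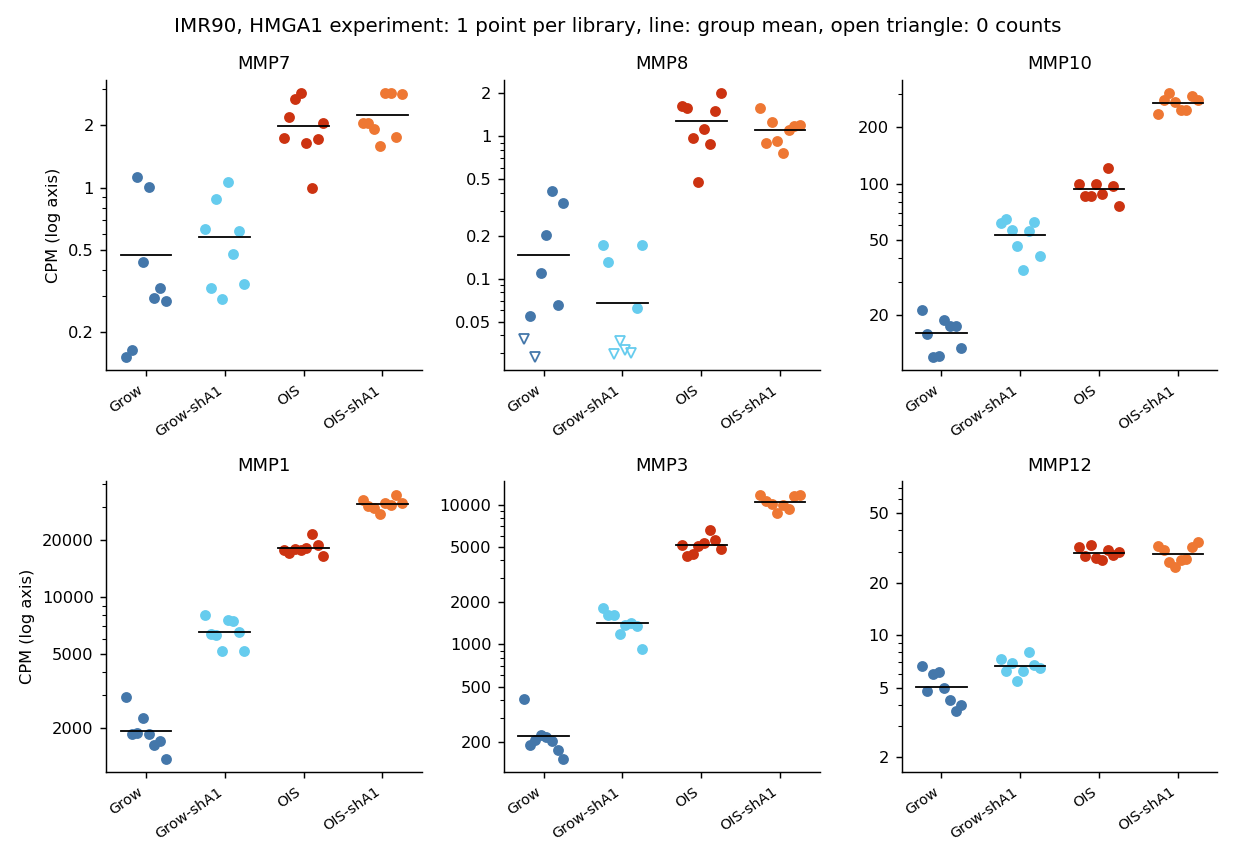
Each point is 1 library of the first experiment on a log axis in CPM, the line is the group mean, and open triangles mark libraries with 0 counts, for MMP7, MMP8, MMP10, MMP1, MMP3 and MMP12. MMP10, MMP1 and MMP3 step up from Grow through Grow-shA1 and OIS to OIS-shA1 without overlap, whereas MMP12 lies between 24.5 and 34.03 CPM in both OIS and OIS-shA1. The share of all genes with such steps was not computed.

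Knock-down of HMGA1 went with higher levels of MMP10, MMP1 and MMP3 in both states. In Grow-shA1 against Grow, all 4 members that passed the filter, MMP10, MMP1, MMP3 and MMP12, were higher, in a comparison that called 29.9% of 13072 genes and called 14.8% higher. In OIS-shA1 against OIS, 3 of the 6 members tested were called, all higher (MMP10, MMP1 and MMP3), where 35.9% of 13327 genes were called and 18.8% were called higher. These 2 comparisons share no library with each other, but each shares its control with OIS against Grow.

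MMP10 had 34.5 CPM in the lowest, 56.4 in the median and 65.1 in the highest Grow-shA1 library, all above every Grow library (log2 fold change 1.74, SE 0.12, edgeR adjusted p = 3.97e-11). In OIS-shA1 it had 235, 277 and 305 CPM, again above every OIS library (log2 fold change 1.53, SE 0.07, edgeR adjusted p = 4.27e-15). MMP3 showed the larger change in Grow cells, with 930 to 1820 CPM in Grow-shA1 (log2 fold change 2.67, SE 0.15, edgeR adjusted p = 6.11e-13), and 8720 to 11790 CPM in OIS-shA1 (log2 fold change 1.02, SE 0.07, edgeR adjusted p = 1.15e-11). MMP1 had 5130 to 8040 CPM in Grow-shA1 (log2 fold change 1.75, SE 0.12, edgeR adjusted p = 1.13e-11) and 27450 to 34950 CPM in OIS-shA1 (log2 fold change 0.77, SE 0.05, edgeR adjusted p = 2.8e-12). The order Grow, Grow-shA1, OIS, OIS-shA1 held for these 3 genes, and no neighbouring groups in it overlapped. The share of all genes that keep such an order was not computed, so this describes the 3 genes only.

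At both ends of this group of genes the values were smaller or not called. MMP12 had 5.46, 6.63 and 8.01 CPM in the lowest, median and highest Grow-shA1 library (log2 fold change 0.41, SE 0.12, edgeR adjusted p = 0.0104), and its range overlapped that of Grow. In OIS-shA1 it had 24.5, 28.99 and 34.03 CPM, a log2 fold change of -0.02 with a 95% interval from -0.16 to 0.11 (edgeR adjusted p = 0.808). That interval excludes a change of the size seen for MMP10, MMP1 or MMP3 in the same comparison. MMP7 had 1.6, 2.05 and 2.87 CPM in OIS-shA1, a log2 fold change of 0.25 (95% interval -0.13 to 0.62, edgeR adjusted p = 0.331). MMP8, with 160 counts over the OIS-shA1 libraries, was not called either (log2 fold change -0.29, edgeR adjusted p = 0.312). MMP20 had 2 counts in Grow-shA1 and 41 in OIS-shA1, MMP27 0 and 1, and MMP13 7 and 24.

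Whether the HMGA1 knock-down changed a member by a different amount in OIS than in Grow was tested with an interaction term over the 4 groups. Of 6 members tested 3 were called, all with a smaller change in OIS, where 23.6% of 13903 genes were called and 11.4% were called lower. The interaction was -1.65 for MMP3 (SE 0.18, edgeR adjusted p = 3.27e-09), -0.98 for MMP1 (SE 0.13, edgeR adjusted p = 5.09e-07) and -0.43 for MMP12 (SE 0.13, edgeR adjusted p = 0.0112). MMP10, next to MMP1, was not called (-0.21, 95% interval -0.51 to 0.08, edgeR adjusted p = 0.331), nor were MMP7 (-0.01) and MMP8 (0.77). Senescence within the knock-down, OIS-shA1 against Grow-shA1, called all 6 members tested as higher, by 3.89 for MMP8, 2.90 for MMP3, 2.37 for MMP10, 2.27 for MMP1, 2.15 for MMP12 and 1.95 for MMP7 on the log2 scale, where 73.1% of genes were called and 37.1% were called higher. MMP8 entered this comparison with 9 counts over the Grow-shA1 libraries, so its value rests on few reads. MMP8 and MMP7 passed the filter only through the OIS-shA1 libraries, where they were higher. Their part in the count of 6 was therefore not independent of direction.

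**Figure D3:**
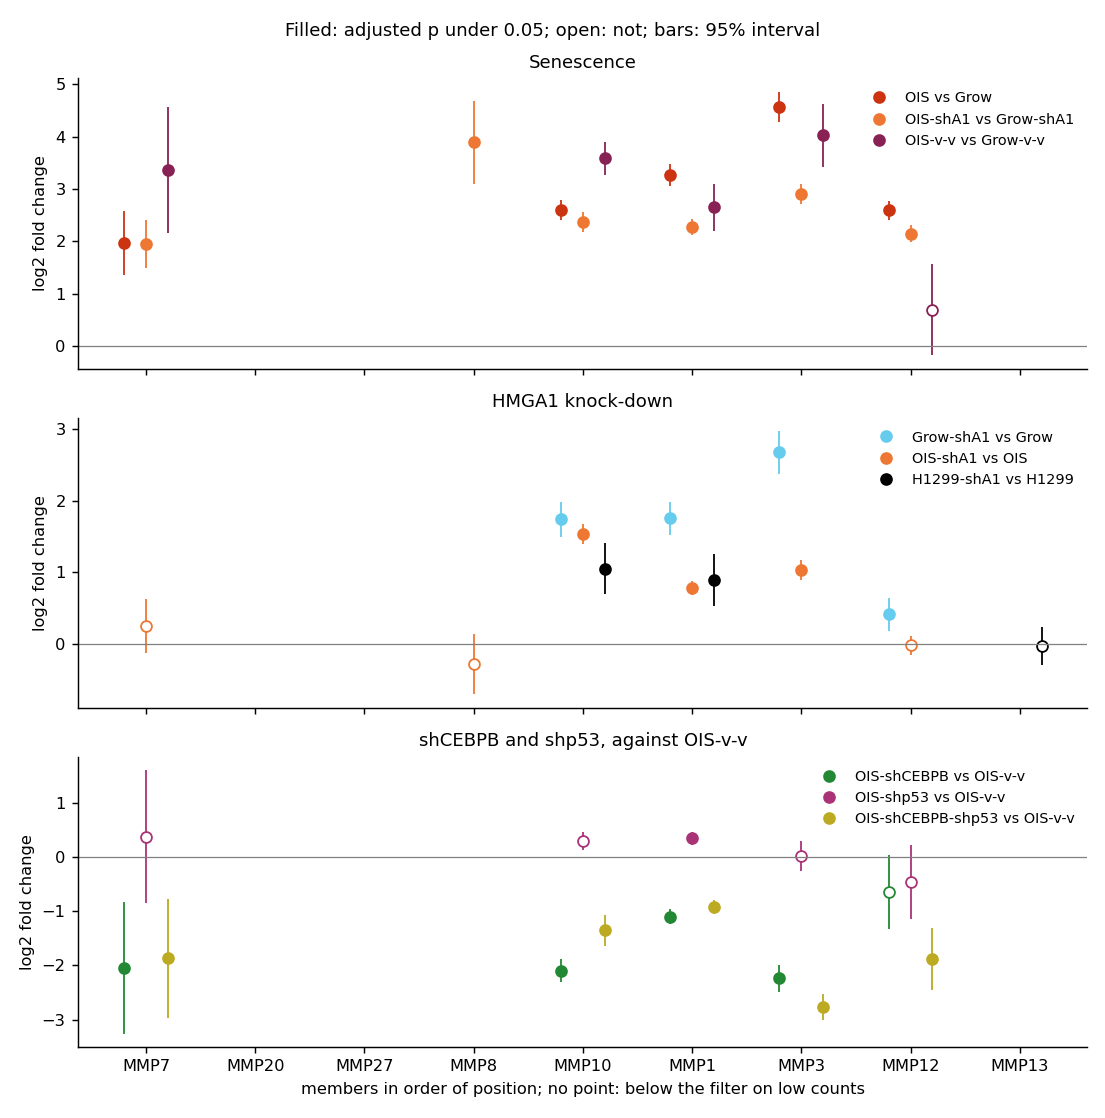
The log2 fold change of each member that passed the filter is plotted in chromosomal order with its 95% interval, in separate panels for senescence, HMGA1 knock-down, and shCEBPB and shp53 against OIS-v-v, and filled points have an edgeR adjusted p under 0.05. MMP3 has the largest change in OIS against Grow and in OIS-v-v against Grow-v-v, at 4.57 and 4.03. In OIS-shA1 against Grow-shA1 MMP8 has the largest, at 3.89, and MMP3 lies at 2.90. MMP12 lies at -0.02 in OIS-shA1 against OIS.

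The second experiment repeated senescence in cells with 2 empty vectors. In OIS-v-v against Grow-v-v, 4 of 5 members tested were called, all higher, where 45.8% of 13344 genes were called and 22.7% were called higher. MMP7, MMP10, MMP1 and MMP3 were higher, while MMP12 was not called without a term for the replicates. Same-numbered libraries of this experiment deviated together, although the labels give no pairing. The value with the replicate number as a block therefore stands beside each call it changes. Levels of the 2 experiments were scaled separately and are not compared.

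MMP10 had 8.85, 10.98, 11.4, 5.83 and 11.6 CPM in Grow-v-v replicates 1 to 5, and 119, 114, 119, 111 and 118 CPM in OIS-v-v (log2 fold change 3.59, SE 0.16, edgeR adjusted p = 9.47e-09). MMP3 had 461, 499, 507, 144 and 317 CPM in Grow-v-v and 6978, 6769, 6760, 5169 and 5419 CPM in OIS-v-v (4.03, SE 0.30, edgeR adjusted p = 6.2e-07). MMP1 had 3534, 3413, 3637, 1369 and 2292 CPM in Grow-v-v and 17930, 16730, 17590, 17930 and 18400 CPM in OIS-v-v (2.65, SE 0.23, edgeR adjusted p = 1.87e-06). For these 3 genes the groups were well apart, and in Grow-v-v the low values of MMP1 and MMP3 were those of replicates 4 and 5.

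MMP7 and MMP12 were lower in replicates 4 and 5 than in replicates 1 to 3 in every group of this experiment. MMP7 had 0.460, 0.416, 0.772, 0 and 0.139 CPM in Grow-v-v and 5.59, 4.43, 6.87, 1.46 and 1.32 CPM in OIS-v-v, with no overlap (log2 fold change 3.37, SE 0.61, edgeR adjusted p = 0.000665). It passed the filter only through the group where it was higher, here and in each later comparison of this experiment that called it. MMP12 had 20.7, 20.5, 22.3, 5.22 and 4.95 CPM in Grow-v-v and 32.7, 30.7, 30.9, 13.8 and 10.99 CPM in OIS-v-v. The groups of MMP12 overlapped because of replicates 4 and 5, and it was not called (0.69, SE 0.44, edgeR adjusted p = 0.224). With the replicate number as a block the log2 fold change was 0.82 (SE 0.14, edgeR adjusted p = 0.00184). It was 0.57 in replicates 1 to 3 alone and 1.29 in replicates 4 and 5 alone, and both passed the test. MMP8 had 4 counts in Grow-v-v and 33 in OIS-v-v, MMP13 4 and 11, and MMP20 2 and 7, and MMP27 had 0 counts in all libraries of this experiment.

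**Figure D4:**
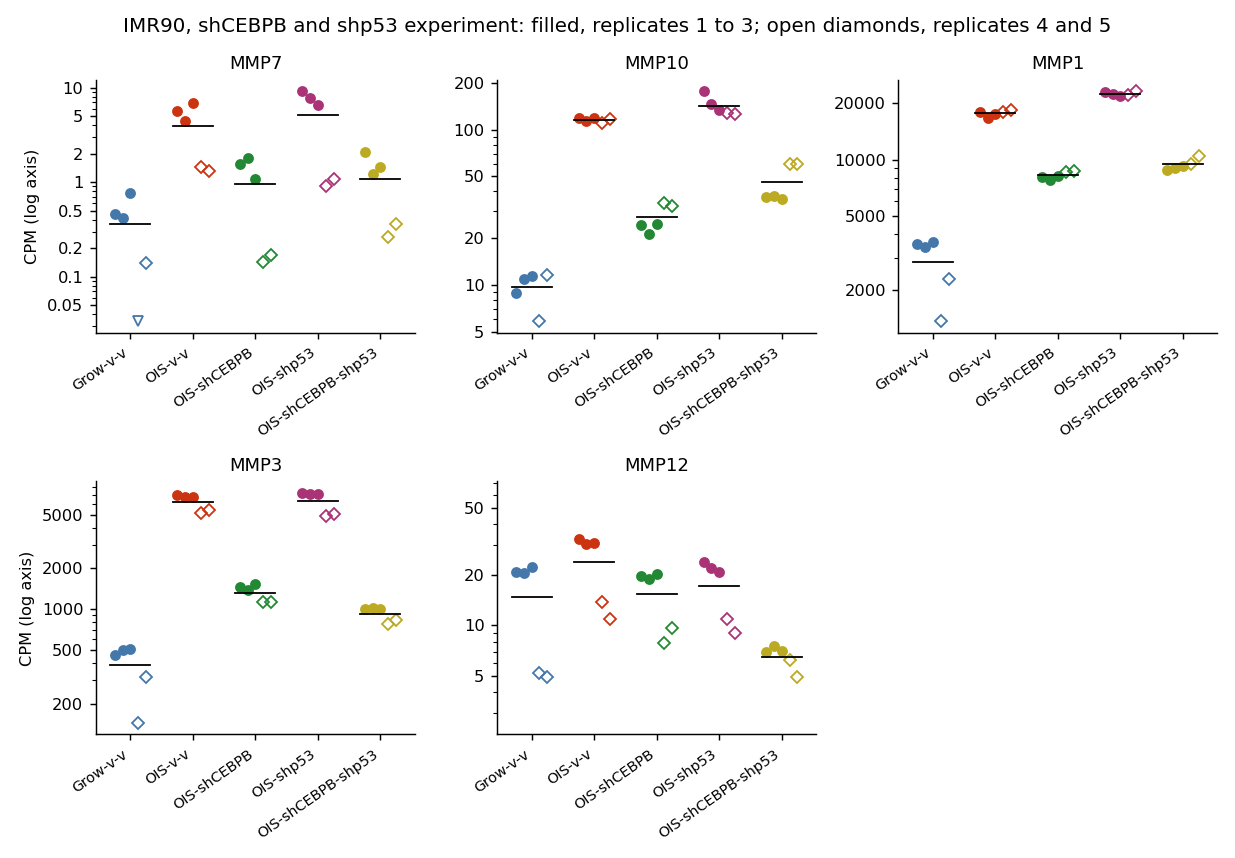
Each point is 1 library of the second experiment on a log axis in CPM for MMP7, MMP10, MMP1, MMP3 and MMP12, filled for replicates 1 to 3 and open diamonds for replicates 4 and 5, with a line at the group mean. MMP10 and MMP1 fall in the order Grow-v-v, OIS-shCEBPB, OIS-shCEBPB-shp53, OIS-v-v, OIS-shp53 without overlap, and the share of all genes with such an order was not computed. MMP12 separates by replicate set, with Grow-v-v values of 20.5 to 22.3 in replicates 1 to 3 and 4.95 to 5.22 in replicates 4 and 5.

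Senescent cells with less C/EBPβ had lower levels of 4 of the 5 members tested in OIS-shCEBPB against OIS-v-v, where 17.1% of 13396 genes were called and 8% were called lower. MMP10 had 24.5, 21.3, 24.6, 33.7 and 32.3 CPM in OIS-shCEBPB (log2 fold change -2.10, SE 0.11, edgeR adjusted p = 1.7e-07). MMP3 had 1457, 1392, 1532, 1120 and 1128 CPM (-2.23, SE 0.13, edgeR adjusted p = 3.56e-07), and MMP1 had 8070, 7774, 8185, 8636 and 8719 CPM (-1.10, SE 0.07, edgeR adjusted p = 8.36e-07). All 5 libraries lay between the Grow-v-v and the OIS-v-v libraries for each of these 3 genes. MMP7 had 1.55, 1.79, 1.09, 0.143 and 0.170 CPM, overlapping OIS-v-v (-2.05, SE 0.62, edgeR adjusted p = 0.0402). This last call was lost without OIS-v-v replicate 1, 2 or 3, or without OIS-shCEBPB replicate 1, 3, 4 or 5, with log2 fold changes from -2.44 to -1.75. Those fits did not use the replicate numbers, and with the replicate block and all libraries MMP7 was called (-2.09, SE 0.24, edgeR adjusted p = 4.01e-05). MMP12 had 19.7, 18.95, 20.2, 7.92 and 9.65 CPM and was not called (-0.64, SE 0.35, edgeR adjusted p = 0.257), while with the replicate block it was (-0.63, SE 0.08, edgeR adjusted p = 0.000102). The block raised the number of all genes called from 2290 to 4270. MMP8 had 15 counts in this group, MMP13 9 and MMP20 2.

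The shp53 construct alone gave 1 call among the members. In OIS-shp53 against OIS-v-v, 1 of 5 members was called, where 4.44% of 13378 genes were. That member was MMP1, with 23020, 22330, 22010, 22200 and 23240 CPM, above every OIS-v-v library (log2 fold change 0.35, SE 0.06, edgeR adjusted p = 0.00914). MMP10 had 177, 147, 134, 128 and 127 CPM, also above every OIS-v-v library, and was not called (0.30, SE 0.08, edgeR adjusted p = 0.0764). MMP12 had 23.8, 21.97, 20.7, 10.9 and 8.98 CPM (-0.46, 95% interval -1.14 to 0.23, edgeR adjusted p = 0.508). With the replicate block MMP10 (0.29, edgeR adjusted p = 0.00447) and MMP12 (-0.45, edgeR adjusted p = 0.000377) were called too, and the number of all genes called went from 594 to 3037. MMP3 had 7254, 7151, 7175, 4926 and 5092 CPM, overlapping OIS-v-v (0.02, 95% interval -0.25 to 0.29, edgeR adjusted p = 0.948), and MMP7 had 9.13, 7.72, 6.51, 0.918 and 1.09 CPM (0.38, 95% interval -0.86 to 1.61, edgeR adjusted p = 0.785). MMP8 had 57 counts in OIS-shp53 and MMP13 37, the highest totals of both in this experiment, and MMP20 had 13.

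With both knock-downs, all 5 members tested were lower in OIS-shCEBPB-shp53 than in OIS-v-v, where 33.6% of 13388 genes were called and 16.5% were called lower. MMP3 had 1003, 1014, 1009, 770 and 828 CPM (log2 fold change -2.76, SE 0.12, edgeR adjusted p = 1.74e-08), below every library of either single knock-down. MMP12 had 6.95, 7.51, 7.06, 6.20 and 4.95 CPM (-1.88, SE 0.29, edgeR adjusted p = 0.000444), also below them. MMP10 had 36.7, 37.2, 36.04, 60.1 and 59.8 CPM (-1.35, SE 0.15, edgeR adjusted p = 2.94e-05), which lay above every OIS-shCEBPB library. MMP1 had 8868, 9088, 9267, 9501 and 10450 CPM (-0.92, SE 0.07, edgeR adjusted p = 1.23e-06). MMP7 had 2.07, 1.23, 1.46, 0.265 and 0.358 CPM (-1.87, SE 0.56, edgeR adjusted p = 0.0223), and this call was lost without OIS-v-v replicate 1 or 3 or OIS-shCEBPB-shp53 replicate 5. With the replicate block and all libraries MMP7 was called (-1.89, SE 0.18, edgeR adjusted p = 1.54e-05). MMP8 had 20 counts, MMP13 24 and MMP20 2.

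With the shp53 construct added to shCEBPB, members of the cluster moved in opposite directions. In OIS-shCEBPB-shp53 against OIS-shCEBPB, 14.8% of 13418 genes were called, and 3 of 5 members. MMP10 was higher (log2 fold change 0.75, SE 0.18, edgeR adjusted p = 0.0136), whereas MMP3 (-0.52, SE 0.11, edgeR adjusted p = 0.0073) and MMP12 (-1.23, SE 0.25, edgeR adjusted p = 0.00697) were lower. MMP1 was not called (0.19, SE 0.06, edgeR adjusted p = 0.0538) until the replicate block was added (0.19, edgeR adjusted p = 0.00111) or OIS-shCEBPB replicate 5 was left out, and the block took all calls from 1992 to 4425. MMP7 was not called (0.18, 95% interval -1.04 to 1.41, edgeR adjusted p = 0.877). Against OIS-shp53, where 27.6% of 13428 genes were called and 13.7% were called lower, all 5 were lower, by -2.79 for MMP3, -2.25 for MMP7, -1.65 for MMP10, -1.42 for MMP12 and -1.27 for MMP1 on the log2 scale. The MMP7 call there was lost without OIS-shp53 replicate 1, 2 or 3 or OIS-shCEBPB-shp53 replicate 4 or 5. With the replicate block and all libraries MMP7 was called there (-2.23, SE 0.16, edgeR adjusted p = 6.72e-08).

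Against Grow-v-v, the double knock-down was higher for MMP10 (log2 fold change 2.24), MMP1 (1.74) and MMP3 (1.27), all called by the edgeR test, where 49.9% of 13395 genes were called. MMP12 was lower than in Grow-v-v (-1.18, SE 0.39, edgeR adjusted p = 0.0249), but the call rested on replicates 1 to 3. It was -1.55 in replicates 1 to 3 alone and 0.14 (edgeR adjusted p = 0.586) in replicates 4 and 5 alone, and it was lost without any 1 of Grow-v-v replicates 1 to 3 or without OIS-shCEBPB-shp53 replicate 4 or 5, with log2 fold changes from -1.40 to -0.98. The comparisons of this experiment share control libraries, so their values are given side by side only. The interaction of the 2 knock-downs, over the 4 OIS groups, called 0 of 5 members by the edgeR test, where 0.0432% of 13873 genes (6) were called. At an unadjusted p under 0.05 it held 2 members, MMP3 and MMP10, and DESeq2 called 0 members and 30 genes in all. With the replicate block MMP3 was called (-0.53, SE 0.06, edgeR adjusted p = 3.97e-05), and the number of all genes called went from 6 to 104.

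The next question was whether neighbours moved by the same amount, which was read from the log2 ratio of the counts of 2 neighbouring members within each library. Such a ratio does not depend on how libraries are scaled. Neighbours were taken in chromosomal order among the members that passed the filter, and group means were compared with 2-sided exact permutation tests, adjusted over all 46 ratio tests, of which 30 passed. No background share was computed for these ratios, which were formed among the members alone. How many ratios between other genes would pass was not tested, so the counts of ratios passed are not particular to the cluster.

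In OIS against Grow, 3 of 4 neighbour ratios differed. The log2 ratio of MMP1 to MMP3 was 3.15 ± 0.17 (SD, n = 8) in Grow and 1.83 ± 0.12 in OIS, a difference of -1.33 with no overlap (exact p = 0.000155, the smallest that 8 against 8 allows, adjusted p = 0.000715). Thus MMP1 exceeded MMP3 by less in senescence. The ratio of MMP3 to MMP12 went the other way, from 5.42 ± 0.27 to 7.43 ± 0.22, a difference of 2.01 (exact p = 0.000155, adjusted p = 0.000715). The ratio of MMP10 to MMP1, the closest of these pairs on the chromosome, was -6.92 ± 0.37 in Grow and -7.60 ± 0.11 in OIS, a difference of -0.68 with overlapping ranges (exact p = 0.000622, adjusted p = 0.0026). MMP7 to MMP10 did not pass (difference -0.31, exact p = 0.52).

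HMGA1 knock-down moved the same ratios by other amounts. In Grow-shA1 against Grow, MMP10 to MMP1 did not pass, with a difference in log2 ratio of -0.04 (exact p = 0.818), while MMP1 to MMP3 differed by -0.94 and MMP3 to MMP12 by 2.29, both with an exact p of 0.000155. In OIS-shA1 against OIS 4 of 5 ratios passed, each with an exact p of 0.000155 and no overlap. MMP10 to MMP1 was higher by 0.75 (-6.85 ± 0.17 against -7.60 ± 0.11), MMP1 to MMP3 was lower by -0.25 (1.58 ± 0.10 against 1.83 ± 0.12), MMP3 to MMP12 was higher by 1.05, and MMP8 to MMP10 was lower by -1.69. MMP7 to MMP8 did not pass (0.36, exact p = 0.281). In OIS-shA1 against Grow-shA1, 4 of 5 passed, and the 1 that did not was MMP10 to MMP1 (0.11, exact p = 0.517). Among those that passed, MMP7 to MMP8 and MMP8 to MMP10 rest on 9 counts of MMP8 over the Grow-shA1 libraries. At such counts the added 0.5 weighs on the ratio.

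**Figure D5:**
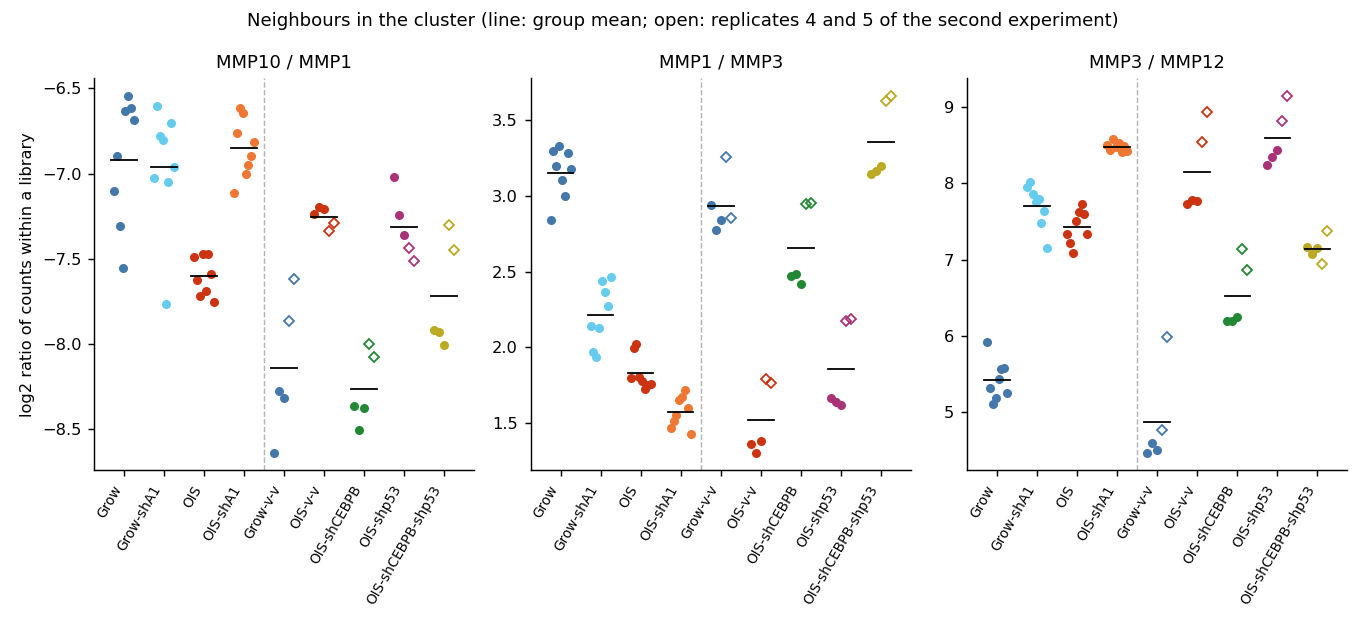
The log2 ratio of counts within each library is plotted for MMP10 to MMP1, MMP1 to MMP3 and MMP3 to MMP12 in the 9 IMR90 groups, 1 point a library with a line at the group mean. MMP1 to MMP3 lies at 3.15 in Grow and 2.93 in Grow-v-v on average, and at 1.83 in OIS and 1.52 in OIS-v-v.

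In the second experiment 5 libraries stood against 5, so the smallest exact p was 0.00794, adjusted to 0.014. OIS-v-v against Grow-v-v gave the same direction as the first experiment for MMP1 to MMP3 (-1.41, 1.52 ± 0.24 against 2.93 ± 0.19) and for MMP3 to MMP12 (3.29), both at that smallest p. For MMP10 to MMP1 the direction was the opposite, 0.89 higher in OIS-v-v (-7.25 ± 0.06 against -8.14 ± 0.40, SD, n = 5) with no overlap (exact p = 0.00794, adjusted p = 0.014). The difference between the 2 experiments was not tested. The rise was 1.20 in replicates 1 to 3 and 0.43 in replicates 4 and 5.

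Lower C/EBPβ turned all 3 ratios in the opposite direction to senescence in that experiment. In OIS-shCEBPB against OIS-v-v, MMP10 to MMP1 differed by -1.01, MMP1 to MMP3 by 1.13 and MMP3 to MMP12 by -1.63, each at the exact p of 0.00794 and without overlap. Since both comparisons use the OIS-v-v libraries, opposite signs are partly built in. In OIS-shp53, 0 of 4 ratios passed the exact test, and 0 had an unadjusted p under 0.05, the largest differences being 0.44 for MMP3 to MMP12 (exact p = 0.183) and 0.34 for MMP1 to MMP3 (exact p = 0.0873). These tests do not use the replicate numbers, and an exact test of 5 same-numbered pairs cannot go below 0.0625. Both of these ratios were higher in OIS-shp53 than in OIS-v-v in 5 of 5 pairs of same-numbered libraries. In OIS-shCEBPB-shp53 against OIS-shCEBPB, 3 of 4 passed: 0.54 for MMP10 to MMP1 (exact p = 0.0159), 0.70 for MMP1 to MMP3 (exact p = 0.00794) and 0.61 for MMP3 to MMP12 (exact p = 0.0238). The call of MMP3 to MMP12 was lost without any 1 of the 5 OIS-shCEBPB-shp53 libraries, with differences of 0.53 to 0.77 over all libraries left out in turn. Against OIS-v-v, the double knock-down differed by -0.47, 1.84 and -1.01 for these 3 ratios, all past the adjusted threshold. The difference of -0.47, for MMP10 to MMP1, was -0.74 in replicates 1 to 3 and -0.06 in replicates 4 and 5, and its call was lost without OIS-v-v replicate 1, 2, 3 or 5. Against OIS-shp53, 2 of 4 ratios passed, MMP1 to MMP3 (1.5) and MMP3 to MMP12 (-1.45), and against Grow-v-v 2 of 3, the same pairs (0.43 and 2.28). The call of 0.43, for MMP1 to MMP3, was lost without Grow-v-v replicate 1, 2, 3 or 5 or OIS-shCEBPB-shp53 replicate 4 or 5, with differences of 0.35 to 0.51. All 16 ratio differences that passed in this experiment had the same direction in replicates 1 to 3 and in replicates 4 and 5, as did 5 of the 11 that did not pass. The 16 were picked on these same libraries. Where groups do not overlap, the direction in each set is fixed, so this is no separate test.

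H1299 cells used the cluster at a far lower level. The 9 members took 0.00626% of all counts in H1299 and 0.0113% in H1299-shA1, and MMP1 held 93.9% of their per-length level in H1299, followed by MMP13 with 3.69%. In H1299-shA1 against H1299, 2 of 3 members tested were called, both higher, where 15.6% of 14840 genes were called and 8.65% were called higher. MMP1 had 41.9 CPM in the lowest, 52.1 in the median and 102.7 in the highest H1299 library, and 73.1, 107.1 and 141.7 CPM in H1299-shA1 (log2 fold change 0.89, SE 0.18, edgeR adjusted p = 0.00248). The ranges overlapped through 1 H1299 library. MMP10 had 0.460, 0.971 and 1.01 CPM in H1299 and 1.27, 1.78 and 2.12 CPM in H1299-shA1, with no overlap (1.05, SE 0.18, edgeR adjusted p = 0.00047).

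MMP13, the only member that passed the filter in H1299 and in none of the fibroblast comparisons, had 2.43, 2.95 and 4.05 CPM in H1299 and 2.24, 3.16 and 3.63 CPM in H1299-shA1. It was not called (log2 fold change -0.03, 95% interval -0.30 to 0.24, edgeR adjusted p = 0.917). The log2 ratio of MMP1 to MMP13 was 4.19 ± 0.44 (SD, n = 7) in H1299 and 5.12 ± 0.29 (SD, n = 6) in H1299-shA1, a difference of 0.93 (exact p = 0.00291, adjusted p = 0.0112), while MMP10 to MMP1 differed by 0.16 (exact p = 0.394). MMP3, so high in the fibroblasts, had 7 counts over the 7 H1299 libraries and 5 over the 6 H1299-shA1 libraries. MMP12 had 35 and 75 counts and was called only when no filter was applied (1.38, edgeR adjusted p = 0.00241). MMP7 had 5 and 6 counts, MMP8 14 and 17, MMP20 18 and 12, and MMP27 0 and 0.

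The proteases act against inhibitors and on substrates, which were counted from lists of known genes. In OIS against Grow, where 74.8% of all genes tested were called, the share called in a list such as 6 of 8 is near that of all genes and says nothing particular about it. The 4 TIMP inhibitors divided, with 2 higher and 2 lower (TIMP2 -1.62, TIMP3 -1.23 and TIMP1 0.76 on the log2 scale), while all 9 collagen and basement membrane substrates were lower (COL1A2 -3.69, COL1A1 -3.21, COL3A1 -3.18), with a list median of -1.29 against 0.03 over all genes. Of 14 MMPs outside the cluster 8 were tested, 3 were higher and 3 lower, and their values were small beside those of the cluster (MMP15 0.72, MMP24 -0.65, MMP2 -0.40). The plasminogen activators and their inhibitors, which lie upstream of MMP activation, had 3 higher and 3 lower of 6 (SERPINB2 4.93, PLAU 0.72). AP-1 subunits had 5 higher and 3 lower of 8 (FOSB 2.42, FOS 1.68, JUN 1.12). Their letters stand in the promoters of MMP7, MMP10 and also MMP20, which stayed at few counts, and a link was not tested.

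In OIS-shA1 against OIS, where 35.9% of all genes were called and 18.8% were called higher, TIMP3 was lower (-1.20), TIMP2 (0.34) and TIMP1 (0.27) were higher, 4 of 9 other MMPs were higher and 1 lower (MMP9 0.93, MMP17 0.52, MMP11 -0.48), and AP-1 had 1 higher and 3 lower (FOS -0.72, ATF3 -0.66, FOSB 0.36). In OIS-shCEBPB against OIS-v-v, where 17.1% of all genes were called and 8% were called lower, TIMP3 was higher (1.69) and TIMP1 lower (-1.27), 3 of 8 AP-1 subunits were lower (FOSB -0.94, JUN -0.56, JUNB -0.32) and 0 higher, and of 9 other MMPs tested 2 were higher, among them MMP11 (1.34), and 0 lower. In OIS-shp53 against OIS-v-v, where 4.44% were called, MMP9, a gelatinase encoded on another chromosome, was the 1 other MMP called of 9 tested (2.72). In H1299-shA1 against H1299, where 15.6% were called, 3 of 9 other MMPs were higher and 2 lower (MMP2 0.86, MMP14 0.65, MMP9 0.54).

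The genes around the cluster gave a local comparison. The 4 nearest measured genes on either side, YAP1, BIRC3, BIRC2, TMEM123, DCUN1D5, DYNC2H1, PDGFD and CASP4, had 3 higher and 4 lower in OIS against Grow, from -1.98 for PDGFD to 1.26 for DYNC2H1 with a median of -0.11 on the log2 scale, where the 5 members tested ran from 1.97 to 4.57. In OIS-shA1 against OIS 4 were higher and 1 lower, from -0.64 for BIRC3 to 0.79 for PDGFD. In OIS-shCEBPB against OIS-v-v 3 were higher and 2 lower, BIRC3 at 1.57 among them. Over all genes tested, 74.8%, 35.9% and 17.1% were called in these 3 comparisons, in the order given. Inside the cluster only WTAPP1 had more than a few counts. It was higher in OIS than in Grow (4.53, SE 0.22, edgeR adjusted p = 3.81e-17) and in OIS-shA1 than in OIS (0.88, SE 0.10, edgeR adjusted p = 1.25e-07), and it lies across MMP10, MMP1 and the 3′ end of MMP3 on the other strand. How far its reads come from those genes was not tested.

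Genes with a pattern like that of each member were sought over the 32 libraries of the first experiment by Spearman correlation of CPM among 12564 genes. These values describe libraries that share 4 groups and have no test. Among genes outside the cluster, MMP1 was nearest to BCL2A1 (0.982), NRG1 (0.980) and CLMP (0.978), and MMP3 to KCNJ15 (0.983), BCL2A1 (0.983) and NRG1 (0.981). MMP10 was nearest to PHLDA1 (0.975), PAQR5 (0.974) and KRR1 (0.973). MMP12 had lower values, with TSC22D1 (0.925), EHF (0.924) and THBD (0.911), and MMP7 had SLIRP (0.902), COX5A (0.896) and NUDT5 (0.893). Between members the correlation was 0.983 for MMP1 and MMP3, 0.963 for MMP10 and MMP3, 0.946 for MMP10 and MMP1, 0.828 for MMP12 and MMP10 and 0.742 for MMP7 and MMP10.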

How the data were processed

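Poly(A) RNA was sequenced and the authors mapped the reads to hg19 (STAR), then used featureCounts on GENCODE19 exons. The deposited values are raw counts without normalization, of fragments in the first table and of reads in the H1299 table, and the second table has no header line that names the counting program. Libraries came from 1 of 2 kits and 1 of 2 instruments, and which is which was not given in the sources used here. The members and gene lists were chosen with earlier results of these data known.

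All genes of the groups compared were fitted with edgeR 4.0.16 (R 4.3.3), using TMM scaling, the filterByExpr minimum of 10 counts, the quasi-likelihood F test and Benjamini-Hochberg adjustment, called under 0.05 with no minimum fold change. The SE is the log2 fold change divided by the square root of F. CPM used TMM factors over a whole table. Neighbour ratios added 0.5 to each count. In the second experiment, same-numbered libraries of the groups compared deviated together (correlations 0.131 to 0.678), so the replicate number was also used as a block. Every member is named, with knocked-down genes, the 4 nearest genes on each side, the 3 genes most alike and up to 3 called genes of each list. No 2 libraries were identical. Some results for single genes are not reported here. Fits were tested on simulated data. Alternatives were DESeq2 1.42.0, other scalings, filters and fold limits, the block, all groups in 1 fit, replicate sets, other prior counts and medians for ratios, and each library left out. Figures were drawn with matplotlib 3.10.9.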

Additional observations from a re-analysis of the deposited data

Results flagged for a closer look

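In 55 sets of 5 to 8 libraries (a member in a group), 3 had a highest library set apart from the rest by more than Dixon's 95% critical value, and chance alone gives about 1 in 20 such sets. MMP1 was at 21590 CPM in OIS replicate 6, against 16400 to 18760 CPM in the other 7 OIS libraries. MMP3 was at 407.3 CPM in Grow replicate 1, against 152 to 225 CPM in the other 7. MMP1 was at 102.7 CPM in H1299 replicate 1, against 41.9 to 64.9 CPM in the other 6, and this library alone made the H1299 range overlap that of H1299-shA1.

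The effect of the HMGA1 knock-down differed between OIS and Grow by an interaction term for 3 members, with log2 values of -0.98 for MMP1, -1.65 for MMP3 and -0.43 for MMP12, each a smaller change in OIS.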

How the results depend on the processing

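Depth limits MMP20, MMP27 and MMP13, whose counts in the fibroblasts are few or 0. MMP8 is limited in Grow, in Grow-shA1 and in the second experiment, and MMP7 in replicates 4 and 5 of the second experiment. Of 1098 values of single members under an alternative, 1013 kept their direction and their side of the threshold, 32 became called, 32 lost the call and 21 changed sign. Of 390 values of single ratios, 332 kept both. The cause of the changes below was not tested. The split into replicates 1 to 3 and 4 and 5, and its batch term, were chosen after seeing the data.

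The number of members called in OIS against Grow was 8 with no filter, which tests 4 more members, and 6 without OIS replicate 4. With a fold change of at least 2 it was 1 for the interaction of shA1 with OIS, 0 in OIS-shp53, 1 in OIS-shCEBPB-shp53 against OIS-shCEBPB and 1 in H1299-shA1. In OIS-shp53 against OIS-v-v it was 2 with DESeq2, 2 with library sizes alone, 3 with the replicate block, 0 with all groups in 1 fit, 4 in replicates 1 to 3 and 3 with replicates 4 and 5 as a batch term. All groups in 1 fit gave 1 in OIS-shCEBPB-shp53 against OIS-shCEBPB. The interaction of shCEBPB and shp53 called 1 member with the replicate block, 3 in replicates 1 to 3, 2 in replicates 4 and 5 and 2 with the batch term.

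In replicates 4 and 5 alone the sign turned for MMP7 (-0.48) and MMP3 (-0.0789) in OIS-shp53, for MMP12 in OIS-shCEBPB-shp53 against Grow-v-v (0.14) and for MMP7 in the interaction of shCEBPB and shp53 (1.45). With each library left out, values that changed sign ranged from -0.0372 to 0.1015 for MMP3 in OIS-shp53, from -0.20 to 0.58 for MMP7 in OIS-shCEBPB-shp53 against OIS-shCEBPB and from -0.57 to 0.20 for MMP7 in that interaction, and MMP7 in the interaction of shA1 with OIS was 0.0136 without OIS replicate 4. MMP7 to MMP10 ranged from -0.49 to 0.41 in OIS-v-v, -0.68 to 0.34 in OIS-shCEBPB, -0.50 to 0.25 in OIS-shp53, and -0.88 to 0.17 and -0.79 to 0.14 for the double against each single knock-down. Between group medians the ratio of MMP7 to MMP10 in OIS-v-v vs Grow-v-v was -0.0495, and it was 0.0172 in OIS, 0.21 in OIS-shCEBPB and 0.32 in OIS-shp53, and with a prior count of 2 it was -0.54 in OIS-v-v. MMP10 to MMP1 in H1299-shA1 was -0.009 between medians. With medians, 0 ratios passed in OIS-v-v, in OIS-shCEBPB and in the 4 comparisons of the double knock-down. Medians of 5 libraries stay the same under many permutations, even where the groups do not overlap. The exact p of medians could therefore not pass the adjusted threshold there, and this 0 says nothing about these ratios. In OIS-shCEBPB-shp53 against Grow-v-v, 1 passed with a prior count of 2, and 1 to 2 with a library left out.

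With scaling by library size alone, the median log2 fold change of all genes was 0.22 in OIS against Grow (0.03 with TMM). It was 0.11 in OIS-shA1 against Grow-shA1 (0.02 with TMM) and -0.13 in the interaction of shA1 with OIS (-0.01 with TMM). The share of higher calls in OIS against Grow went from 51.9% to 66.2%. A fold change of at least 2 left 2562 of 9945 calls in OIS against Grow and 257 of 3905 in Grow-shA1. The replicate block was also fitted in the experiments whose same-numbered libraries deviated in no common direction (correlations -0.289 to 0.274 and -0.236 to 0.401). There it changed no call of a member, and MMP13 in H1299-shA1 was 0.0453 against -0.03. In the second experiment it changed none beside those given above in the results.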
